A study of Rattus norvegicus with 9 samples.

Results

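Factors that splice pre-mRNA and that form the 3′ ends of mRNA were examined in the frontal cortex of 9 male Wistar rats. The group was set by gene symbol: genes typed as mRNA whose symbol begins with Srsf, Hnrnp, Cpsf, Cstf, Sf3a, Sf3b, Prpf, U2af, Snrp or Rbm in the forms that carry a number or subunit letter. A further requirement was a sum of at least 90 counts over the 9 rats. It took in 110 of the 37209 genes in the count table, and 116 genes carried such a symbol. The other 6 had sums of 0 (Rbm31y), 2 (Cpsf4l), 4 (Snrpd2l), 51 (Rbm12), 63 (Rbm44) and 85 counts (Rbm20). The lowest sums inside the limit were 145 (Hnrnpab), 154 (Snrpg) and 213 counts (Rbm46). All 110 members passed the filter on low counts, as did 16837 genes in all. By subfamily there were 11 SR proteins (Srsf), 18 hnRNP proteins (Hnrnp), 11 cleavage and polyadenylation factors (Cpsf and Cstf), 9 SF3A and SF3B subunits, 13 PRP factors (Prpf), 3 U2 auxiliary factors (U2af), 11 snRNP proteins (Snrp) and 34 RNA-binding motif proteins (Rbm).

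Most mammalian genes are transcribed with introns, and the spliceosome, an assembly of small nuclear RNAs and proteins, removes them. SR proteins usually promote the use of an exon while hnRNP proteins often oppose it, so the balance between these families sets many alternative splicing choices, which are frequent in the brain. The 3′ end of an mRNA is made by a separate machine in which CPSF reads the polyadenylation signal and cuts the transcript, CstF binds the downstream element, and CFIm, which contains CPSF6 or CPSF7, favours distal sites and so longer 3′ ends. The Rbm symbol marks only the presence of an RNA recognition motif or a related domain, and its holders range from spliceosome components to regulators of translation and RNA stability.

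The groups were Control, MS and MS+EA, with 3 rats each, and all rats were 14 weeks old. Maternal separation (MS) took pups from their dams for 4 h per day from postnatal day (PND) 1 to PND 21, while Control litters stayed with the dam undisturbed until weaning. MS+EA rats were separated in the same manner and then received electroacupuncture (EA) at the acupoints GV20 and GV29 on alternate days from PND 61 to PND 81 under isoflurane, and the methods of the study state that Control and MS rats were given the anaesthesia alone. No rat that was not separated received EA, so EA was examined only on top of MS. The methods of the study name only Control, MS and EA samples for sequencing, so a sham EA group could not be compared here. The rats had gone through behavioural tests before the tissue was taken, and the sources used here do not say which rats shared a litter. Each library was made from total RNA of 1 rat after removal of ribosomal RNA. The p-values set a group difference against the spread between these rats, and any rats of 1 litter were treated as independent.

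Total counts were 16106381 to 19007907 in Control and MS rats and 12479905 to 14913736 in MS+EA rats. Markers of excitatory neurons, astrocytes and oligodendrocytes were all detected, and ependymal and choroid plexus markers, of which 1 had no counts, summed to 13.0 CPM or less in every rat. Several of these whole-library measures moved with the groups. The sum of 6 excitatory neuron markers was 3380 to 3517 CPM in MS+EA rats and 3894 to 4525 CPM in Control rats, and Camk2a and Slc17a7, which carry most of that sum, were called lower by edgeR. The other 4 were not called, and the log2 fold changes of the 6 were positive in 3, with a median of 0.01. Of the counts in MS+EA rats, 1.90 to 2.13% fell on non-coding genes, against 1.62 to 1.82% in Control and 1.70 to 1.85% in MS rats. The sum of 5 red blood cell markers was 93.8 to 199 CPM in Control rats and 207 to 305 CPM in the other rats, and that of 5 endothelial markers was 135 to 152 CPM in Control, 181 to 218 CPM in MS and 146 to 183 CPM in MS+EA rats. All 6 oligodendrocyte markers had a positive log2 fold change between MS+EA and MS rats (median 0.44) and a negative one between MS and Control rats (median -0.23), none was called, and their sum overlapped between the groups at 2122 to 3238 CPM in Control, 1829 to 2904 in MS and 2043 to 4171 CPM in MS+EA rats. The part of these measures in the results below was not tested, and in such tissue fewer cells of a type and less RNA per cell cannot be told apart.

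The members together made up 0.645 to 0.694% of the counts in Control rats, 0.679 to 0.715% in MS rats and 0.776 to 0.814% in MS+EA rats. Levels are given as CPM, the counts of a gene per 1000000 counts of the library, whose total was first scaled by TMM, a factor that corrects for library composition. The summed level of the members was 6763 ± 184 CPM (SD, n = 3) in Control, 7084 ± 274 in MS and 7797 ± 289 in MS+EA rats. The MS+EA rats lay above every other rat, at 7577 (C3), 8125 (C10) and 7689 CPM (C16), whereas the ranges of Control (6551 to 6871) and MS rats (6817 to 7364) overlapped. Such a sum is weighted towards the genes with most counts. The sums of the SR proteins and of the Cpsf and Cstf factors showed no overlap between any of the groups. For SR proteins they ran from 694 to 782 CPM in Control, 786 to 854 in MS and 898 to 1016 in MS+EA rats, and for the Cpsf and Cstf factors from 650 to 690, 719 to 789 and 831 to 945 CPM. Cpsf6 alone held 189.6 to 218.4, 251.5 to 295.2 and 327.3 to 418.2 CPM of the latter. The median log2 deviation of the Cpsf and Cstf factors from the Control mean overlapped between groups. It was -0.0319 to 0.0169 in Control, -0.0108 to 0.0441 in MS and -0.0692 to 0.0938 in MS+EA rats. The snRNP proteins, with 126 to 144, 127 to 138 and 126 to 154 CPM, and the U2 auxiliary factors, with 138 to 147, 138 to 145 and 138 to 139 CPM, overlapped in all groups.

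**Figure D1:**
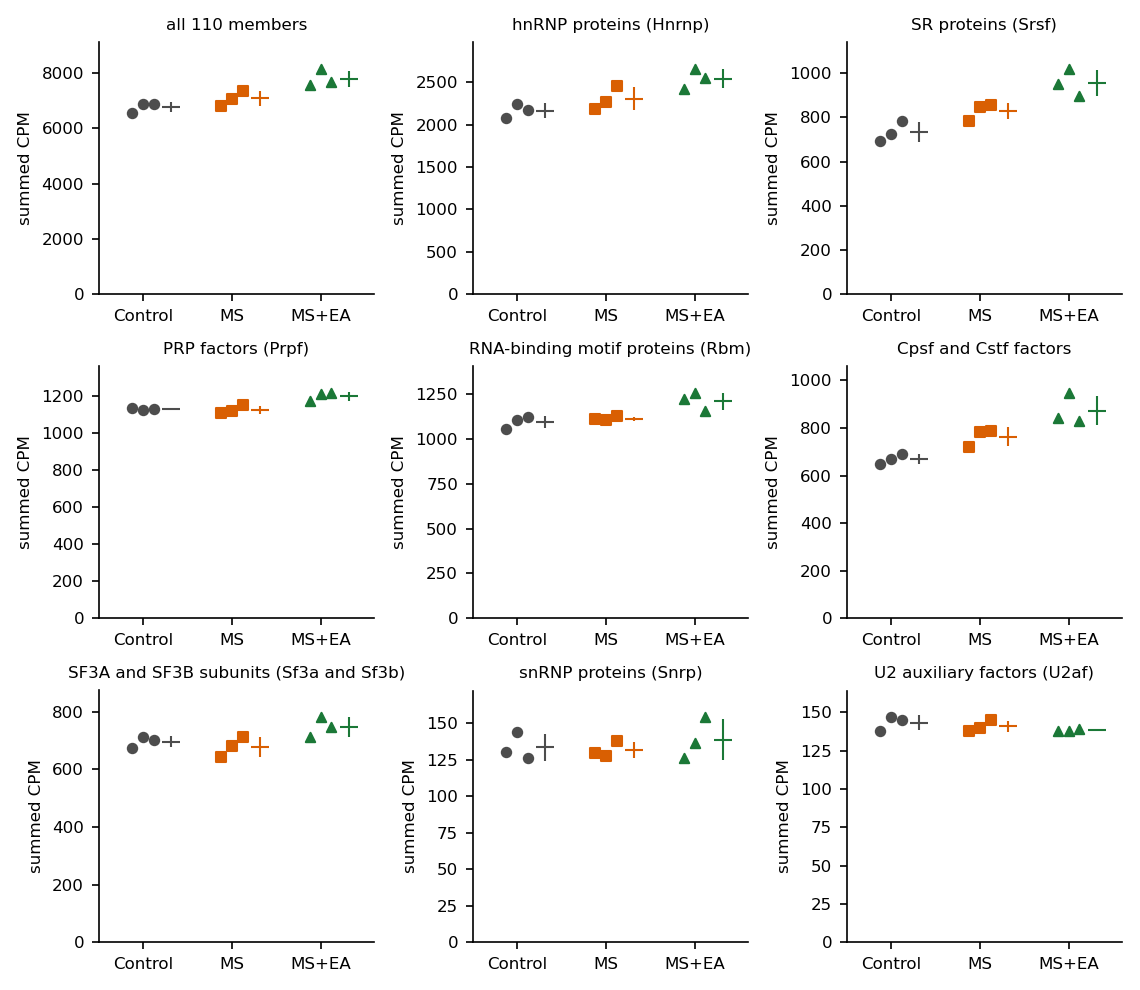
Summed level of all 110 members and of each subfamily, as TMM-scaled CPM on axes that start at 0, with 1 point per rat (circles Control, squares MS, triangles MS+EA) and beside the points the mean with its SD over 3 rats. The MS+EA rats sit at 7577 to 8125 CPM for all members, above the highest MS rat at 7364, and the snRNP and U2af panels overlap throughout.

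The comparison of MS+EA with Control rats had the most members called. Of the 110 members, 18 were higher and 1 was lower in MS+EA rats at an edgeR adjusted p under 0.05, and a call below is one of this edgeR fit unless another tool is named. Over all genes tested, 3.21% were called higher and 2.19% lower in this comparison, while for the members the shares were 16.4% and 0.909%. With the added requirement of a fold change above 1.5, 6 members were higher, or 5.45%, against 1.25% of all genes tested, and none was lower. At an unadjusted p under 0.05, 36 members were higher and 6 lower, or 32.7% and 5.45%, where all genes gave 11.9% and 10.6%. The values of the 3 MS+EA rats were all above those of the 3 Control rats in 35 members and all below in 9, against 13.0% and 12.9% of all genes. The median log2 fold change was 0.12 over the members and 0.01 over all genes tested, and 79 of the 110 values were positive. The members were chosen with earlier results of these data known, and no test was made over the list. DESeq2, which called more genes, gave 23 members higher and 4 lower (Cstf1, Hnrnpl, Rbm42 and Snrpd2) of 105, or 25.7%, against 11.8% of all genes to which it gave an adjusted p. Leaving out Control rat A1 lowered the number of members called from 19 to 6, and leaving out A2, A6 or C10 gave 12, 12 and 10. The shares of all genes called in these fits are not given here. A loss particular to the members can therefore not be told from one over all genes. The 6 members Cpsf6, Prpf39, Srsf1, Srsf6, Srsf10 and Rbm25 were called under every one of the 16 alternatives tried.

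**Figure D2:**
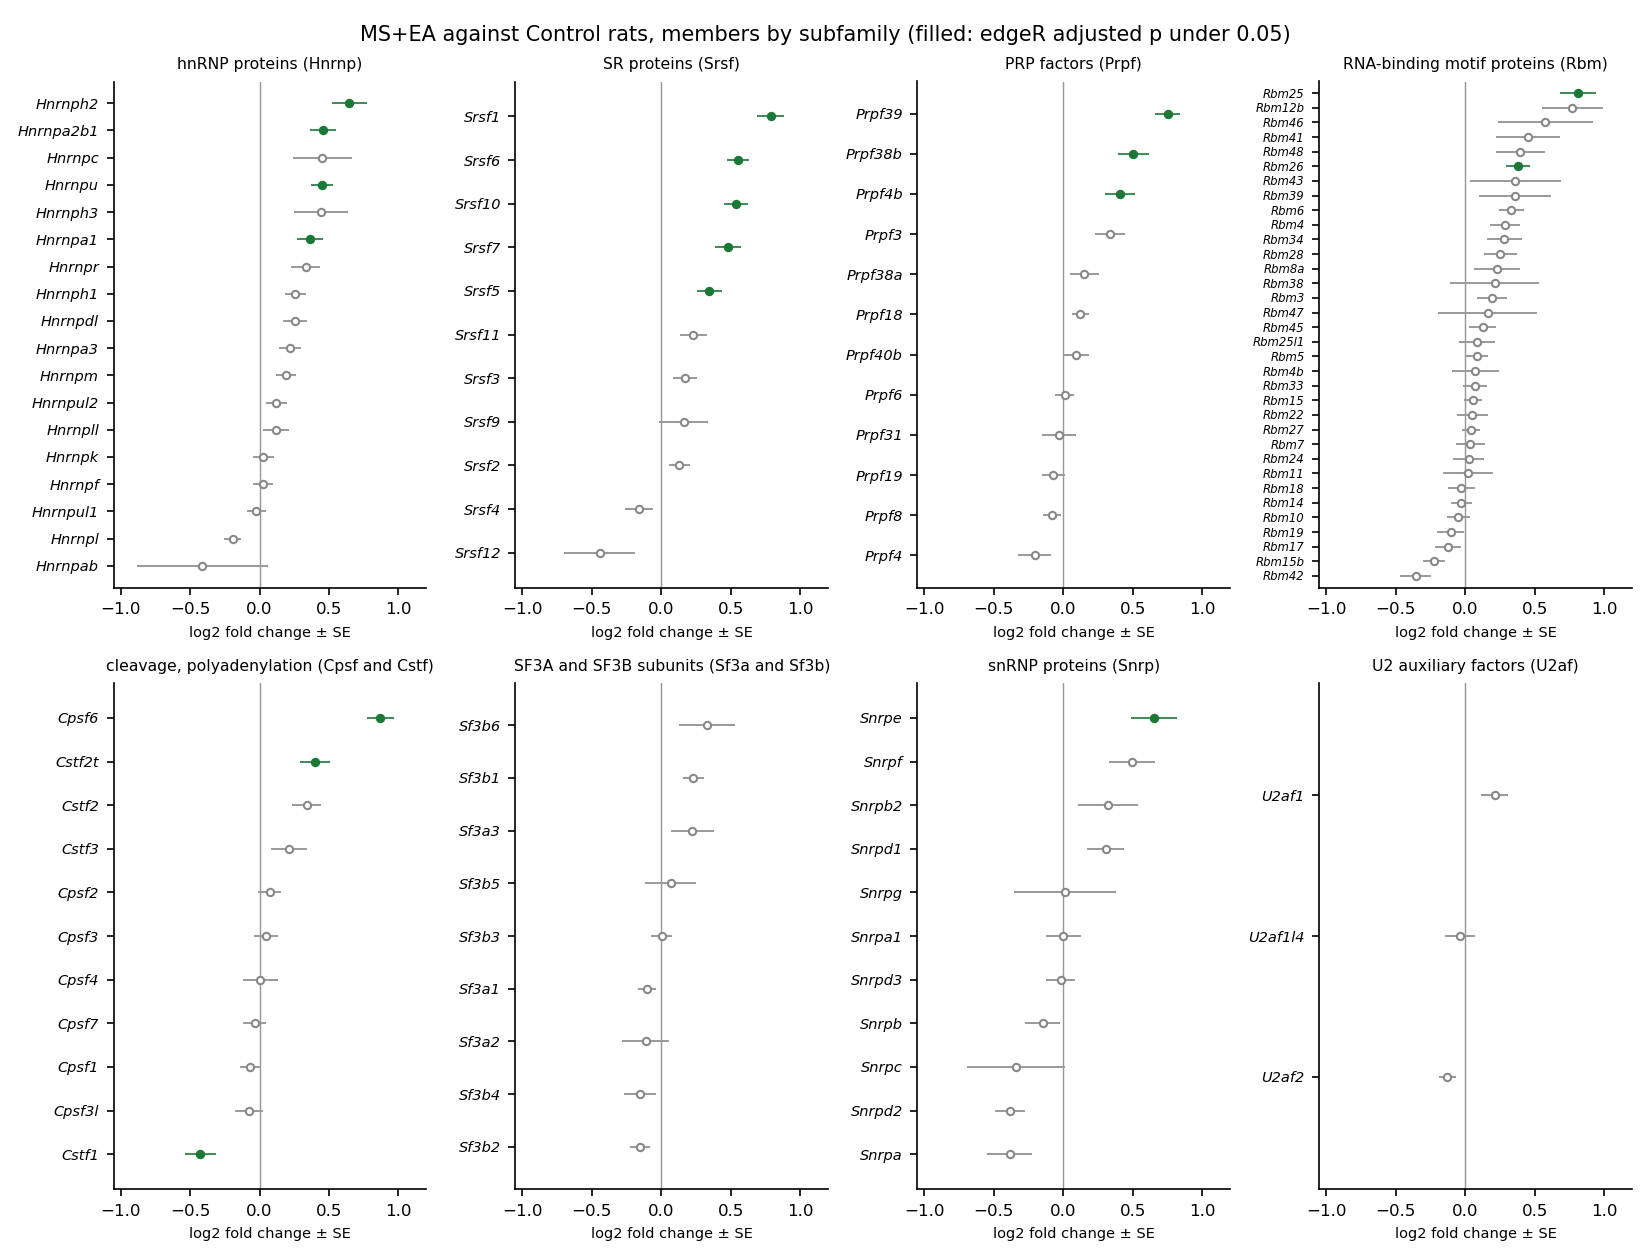
Log2 fold change between MS+EA and Control rats (points) with its standard error (bars) for 109 of the 110 members, in 1 panel per subfamily, filled where the edgeR adjusted p was under 0.05. Of the 18 filled points, 17 lie to the right of 0 and Cstf1 to the left, and there is none among the SF3A and SF3B subunits or the U2 auxiliary factors.

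The sequences before the transcription start of 4 genes are shown because they belong to the members with the 3 smallest p-values between MS+EA and Control rats and to the single member that was lower. Each is the 250 bases before the start in RefSeq on build GRCr8, written 5′ to 3′ on the strand of the gene. RefSeq held such a sequence for 100 of the 110 members and for 17 of the 19 called. Capitals mark matches on either strand to short motifs that were picked after the expression values had been seen: the SP1 box (GGGCGG), the CCAAT box (CCAAT), the E-box (CACGTG) and a core of the NRF1 motif (TGCGCA). A match describes the letters and does not show that a factor binds there. Cpsf6 was taken from chr7:54873999-54874248 (minus strand), Prpf39 from chr6:88824990-88825239 (plus), Srsf1 from chr10:73336248-73336497 (plus) and Cstf1 from chr3:181562705-181562954 (plus).
Cpsf6: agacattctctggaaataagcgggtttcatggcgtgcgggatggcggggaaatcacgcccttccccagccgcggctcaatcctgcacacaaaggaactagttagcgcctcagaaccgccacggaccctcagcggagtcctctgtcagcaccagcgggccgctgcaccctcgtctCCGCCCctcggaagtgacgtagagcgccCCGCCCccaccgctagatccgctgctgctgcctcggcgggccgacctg
Prpf39: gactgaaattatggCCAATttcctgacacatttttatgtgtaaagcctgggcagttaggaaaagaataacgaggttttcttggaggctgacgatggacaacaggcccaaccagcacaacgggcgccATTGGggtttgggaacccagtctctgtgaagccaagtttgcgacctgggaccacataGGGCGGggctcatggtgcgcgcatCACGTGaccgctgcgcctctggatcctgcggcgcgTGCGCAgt
Srsf1: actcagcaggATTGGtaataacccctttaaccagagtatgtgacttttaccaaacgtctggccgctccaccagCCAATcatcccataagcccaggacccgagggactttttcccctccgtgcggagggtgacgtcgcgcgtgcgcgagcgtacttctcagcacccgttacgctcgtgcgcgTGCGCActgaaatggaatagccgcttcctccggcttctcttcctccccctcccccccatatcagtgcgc
Cstf1: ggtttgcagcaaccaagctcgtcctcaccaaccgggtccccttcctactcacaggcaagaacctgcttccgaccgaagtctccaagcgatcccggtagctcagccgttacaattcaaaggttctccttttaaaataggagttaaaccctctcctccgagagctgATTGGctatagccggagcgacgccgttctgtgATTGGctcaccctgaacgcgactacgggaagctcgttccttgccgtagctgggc

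Cpsf6 held 2 SP1 boxes and no CCAAT box, Cstf1 held 2 CCAAT boxes and no SP1 box, and Prpf39 and Srsf1 each held 2 CCAAT boxes and 1 NRF1 core, to which Prpf39 added 1 SP1 box and 1 E-box. Among the promoters of the members, the SP1 box was present in 50%, the CCAAT box in 48%, the E-box in 8% and the NRF1 core in 19%. Over the promoters of all 19005 protein-coding genes of the same length these shares were 40.3%, 35.5%, 6.38% and 7.99%. Within the 17 called members they were 58.8%, 52.9%, 11.8% and 29.4%. The ETS core (CCGGAAG) occurred in 26% of the members' promoters, 17.6% of those called and 9.52% of all, and the YY1 core (AAGATGGC) in 2%, 11.8% and 1.71%. The TATA box (TATAAA) was in 7% of the members' promoters, in 0 of the 17 and in 12.3% of all, and the cAMP response element (TGACGTCA) in 3%, 0 of the 17 and 2.03%. The median GC content was 58.8% for the members and 54.8% for all genes, and the median ratio of observed to expected CpG was 0.883 and 0.523. None of the 8 motifs was present in all 17 promoters of called members.

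Of the SR proteins, 5 of 11 were higher in MS+EA than in Control rats, or 45.45%, against 3.21% of all genes tested. Srsf1, the founding SR protein and a general activator of exon inclusion, had 107, 113 and 116 CPM in Control (A1, A2 and A6 in this order), 138, 166 and 176 CPM in MS (B3, B4, B6) and 178, 219 and 182 CPM in MS+EA rats (C3, C10, C16), an order kept for every gene. The groups did not overlap in any comparison. MS+EA exceeded Control rats by a log2 fold change of 0.79 ± 0.10 (SE, edgeR adjusted p = 0.00385), a fold of 1.72. Srsf6, an SR protein that binds exonic enhancers, had 50.2, 52.1 and 54.7 CPM in Control, 56.2, 68.2 and 62.0 in MS and 79.0, 77.5 and 73.4 CPM in MS+EA rats. Srsf6 rose by 0.55 ± 0.08 on the log2 scale (edgeR adjusted p = 0.00711). Srsf10, an SR protein that represses splicing when it loses its phosphates, as after heat shock, had 48.0, 53.7 and 55.5 CPM in Control, 59.7, 69.0 and 69.2 in MS and 76.4, 78.6 and 72.6 CPM in MS+EA rats. In both genes the 3 groups were again fully separated, with MS rats in the middle. Srsf10 rose by 0.54 ± 0.08 on the log2 scale (edgeR adjusted p = 0.00798).

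Srsf7, which takes part in splicing, mRNA export and the choice of polyadenylation site, rose by a log2 fold change of 0.48 ± 0.09 between Control and MS+EA rats (edgeR adjusted p = 0.0174), and its groups did not overlap. Srsf5 rose by 0.34 ± 0.09 (edgeR adjusted p = 0.0456) from 157, 178 and 189 CPM to 220, 244 and 200 CPM, while the MS rats, at 185, 166 and 186 CPM, lay among the Control rats. The call of Srsf5 was kept in 8 of the 16 alternatives. The other SR proteins were not called. Their log2 fold changes were 0.23 for Srsf11, 0.17 for Srsf3, 0.16 for Srsf9, 0.13 for Srsf2, -0.16 for Srsf4 and -0.44 for Srsf12, a low-count SR protein at 2.94 to 6.75 CPM.

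Of the hnRNP proteins, 4 of 18 were higher in MS+EA than in Control rats and none was lower in edgeR. The share called higher was 22.2%, against 3.21% of all genes tested. Hnrnpu, a scaffold protein that binds chromatin and RNA, had 272, 304 and 325 CPM in Control, 330, 332 and 358 in MS and 397, 435 and 397 CPM in MS+EA rats, without overlap between groups. Hnrnpu rose by 0.45 ± 0.08 (log2, edgeR adjusted p = 0.0101). Hnrnph2, a binder of G-rich tracts encoded on the X chromosome, had 99.1, 102 and 95.1 CPM in Control, 107, 138 and 153 in MS and 132, 180.1 and 151 CPM in MS+EA rats, so that MS and MS+EA rats overlapped. The rise over Control was 0.65 ± 0.13 on the log2 scale (edgeR adjusted p = 0.0169). Hnrnpa2b1, which packages nuclear RNA and carries transcripts along dendrites, had 160.4, 189 and 170.4 CPM in Control, 182, 179 and 218 in MS and 219, 235 and 258 CPM in MS+EA rats. Every MS+EA rat was above every Control rat, although C3 and MS rat B6 were nearly level. It rose by 0.45 ± 0.09 on that scale (edgeR adjusted p = 0.0207).

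Hnrnpa1, a repressor of many exons and a competitor of SRSF1, had 113, 146 and 127 CPM in Control, 125, 119 and 138 in MS and 162, 158 and 177 CPM in MS+EA rats. The MS+EA rats stood apart from both other groups, which overlapped. Its log2 fold change over Control was 0.37 ± 0.09 (edgeR adjusted p = 0.0418), a call kept in 8 of the 16 alternatives. The family of hnRNP A genes has many pseudogenes, and the sources used here do not state how reads with several locations were counted, so its counts are uncertain. Hnrnpl, which binds CA repeats, lay in the opposite direction at 238, 227 and 231 CPM in Control, 210.4, 208 and 217 in MS and 213, 203 and 193 CPM in MS+EA rats. The MS and MS+EA rats were all below the Control rats, and the log2 fold change of MS+EA over Control was -0.19 ± 0.06 (edgeR adjusted p = 0.0819), which edgeR did not call and DESeq2 did. Hnrnpk and Hnrnpul1 had log2 fold changes of 0.03 and -0.02. Hnrnpab and Hnrnpc had 0.469 to 1.87 and 5.93 to 13.1 CPM, and their standard errors of 0.47 and 0.21 leave their differences of -0.41 and 0.45 imprecise.

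The 3′ end factors held both the smallest p-value among the members and the only lower call of edgeR. Cpsf6, the larger subunit of CFIm, had 189.9, 189.6 and 218 CPM in Control, 252, 286 and 295 in MS and 346, 418 and 327 CPM in MS+EA rats. No MS rat overlapped with a Control rat, and no MS+EA rat with an MS rat. MS+EA over Control gave a log2 fold change of 0.87 ± 0.10 (edgeR adjusted p = 0.00297), a fold of 1.83. Cpsf7, which can take its place in CFIm, had 69.9, 72.4 and 77.5 CPM in Control, 76.1, 70.7 and 62.8 in MS and 75.3, 71.1 and 68.1 CPM in MS+EA rats, with the groups intermingled. The log2 fold change of Cpsf7 was -0.03 ± 0.08. Nudt21, the small CFIm subunit, which is no member, had a log2 fold change of 0.13 ± 0.10.

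Cstf1, the WD-repeat subunit of the cleavage stimulation factor, had 26.9, 24.0 and 24.4 CPM in Control, 20.7, 22.4 and 20 in MS and 16.6, 21.2 and 18.3 CPM in MS+EA rats. Both separated groups lay below the Control rats and overlapped with each other. Cstf1 differed from Control by -0.43 ± 0.11 on the log2 scale (edgeR adjusted p = 0.0460), and the call was kept in 6 of the 16 alternatives. Cstf2t, a copy of the RNA-binding subunit gene Cstf2, rose by 0.40 ± 0.11 (edgeR adjusted p = 0.0495, kept in 8 of 16), from 91.2, 90.9 and 84.4 CPM in Control to 109, 128 and 115 CPM in MS+EA rats. Cstf2 itself had a log2 fold change of 0.34 ± 0.10 and was not called (edgeR adjusted p = 0.0713). DESeq2 did call Cstf2, as did edgeR with a filter of at least 1 count and edgeR without Control rat A6. Reads could be shared between Cstf2 and Cstf2t, which are close copies. None of the subunits with a Cpsf symbol other than Cpsf6 was called. Cpsf1, Cpsf2, Cpsf3 and Cpsf4, which recognise the signal and cut the RNA, had log2 fold changes of -0.07, 0.07, 0.04 and 0.01 with standard errors of 0.07 to 0.12. Cpsf3l, which RefSeq now lists as the Integrator subunit Ints11, had -0.08.

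Among the PRP factors, named after yeast pre-mRNA processing mutants, 4 of 13 were higher in MS+EA than in Control rats. That was 30.8%, against 3.21% of all genes tested. Prpf39, a U1 snRNP-associated factor in 5′ splice site selection, had 45.7, 50.6 and 55.5 CPM in Control, 66.4, 58.4 and 63.2 in MS and 83.1, 93.1 and 79.0 CPM in MS+EA rats. The groups formed 3 separate bands. Over Control, Prpf39 rose by a log2 fold change of 0.75 ± 0.09 (edgeR adjusted p = 0.00299). Prpf38b rose by 0.50 ± 0.11 (edgeR adjusted p = 0.0252) and Prpf4b, a kinase of the tri-snRNP and precatalytic spliceosome, by 0.41 ± 0.10 (edgeR adjusted p = 0.0426). The call of Prpf38b was kept in 12 and that of Prpf4b in 9 of the 16 alternatives. Prpf8, the central scaffold of the spliceosome's active site, was at 457 to 523 CPM in all rats with a log2 fold change of -0.08 ± 0.06. Prpf3, a U4/U6 protein, had 0.34 ± 0.11 (edgeR adjusted p = 0.0959) and Prpf19, a ubiquitin ligase needed for activation, -0.07 ± 0.08.

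The factors that recognise the branch point and the 3′ splice site showed no call in edgeR with all 9 rats. Sf3b1, the subunit that grips the branch point region, had 348, 391 and 394 CPM in Control, 365, 379 and 401 in MS and 415, 476 and 438 CPM in MS+EA rats. Every MS+EA rat was above the rats of both other groups, but the log2 fold change of 0.23 ± 0.07 was not called (edgeR adjusted p = 0.0879), except by DESeq2 and by edgeR without MS+EA rat C3. The other 8 SF3A and SF3B subunits had values from -0.15 (Sf3b2) to 0.33 (Sf3b6). U2af1 and U2af2, which form the dimer that binds the 3′ splice site and its polypyrimidine tract, had log2 fold changes of 0.21 ± 0.10 and -0.13 ± 0.06, and U2af1l4 had -0.04. All 3 U2af2 values of MS+EA rats, 90.4, 87.8 and 88.4 CPM, were below those of Control rats, 94.9, 96.7 and 99.9 CPM.

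Only 1 of the 11 snRNP proteins, or 9.09%, was called by edgeR between MS+EA and Control rats. It was higher, as were 3.21% of all genes tested. Snrpe, a subunit of the Sm ring that surrounds the small nuclear RNAs, had 5.56, 6.88 and 6.58 CPM in Control, 7.34, 7.06 and 8.77 in MS and 8.94, 9.37 and 11.7 CPM in MS+EA rats. The groups did not overlap, and the log2 fold change of MS+EA over Control was 0.66 ± 0.16 (edgeR adjusted p = 0.0401, kept in 9 of 16 alternatives). Its lowest count in a rat, 104, was the lowest of any called member. Snrpd2, the sole other snRNP protein called by DESeq2, had 19.5, 18.9 and 18.1 CPM in Control, 16.6, 18.6 and 15.5 in MS and 13.9, 15.2 and 14.2 CPM in MS+EA rats, a log2 fold change of -0.38 ± 0.11 (edgeR adjusted p = 0.0602). Snrpf and Snrpd1 had 0.50 and 0.30, Snrpd3 had -0.02, and Snrpa, a U1 protein, had -0.39 (edgeR adjusted p = 0.177). Sm genes have processed pseudogenes, and the same doubt about reads with several locations applies to them.

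In the Rbm group edgeR called 2 of 34 members, both higher in MS+EA than in Control rats. That was 5.88%, against 3.21% of all genes tested called higher and 2.19% lower. Rbm25, a U1-associated regulator of alternative splicing, had 37.1, 49.6 and 49.8 CPM in Control, 52.6, 55.2 and 65.8 in MS and 72.5, 91.5 and 75.0 CPM in MS+EA rats. The groups were separate, with Control rat A1 lowest of all. Rbm25 rose by a log2 fold change of 0.81 ± 0.13 (edgeR adjusted p = 0.00847). Rbm25l1, a near copy, had 11.2, 13.0 and 11.2 CPM in Control and 13.3, 12.8 and 11.4 CPM in MS+EA rats, with a log2 fold change of 0.09 ± 0.13. Rbm26 rose by 0.38 ± 0.09 (edgeR adjusted p = 0.0302, kept in 12 of 16 alternatives), from 121, 125 and 123 CPM to 164, 177 and 139 CPM, while its relative Rbm27 had 0.04 ± 0.07. The remaining Rbm members lay between -0.36 (Rbm42, edgeR adjusted p = 0.0823) and 0.77 (Rbm12b, at 2.78 to 5.96 CPM, edgeR adjusted p = 0.0615). DESeq2 also called Rbm6 and Rbm12b higher and Rbm42 lower. Rbm5 and Rbm6, splicing regulators that are next to each other on chromosome 8, had log2 fold changes of 0.08 ± 0.08 and 0.33 ± 0.09 (edgeR adjusted p = 0.0525 for Rbm6). The neighbours Rbm14, Rbm4b and Rbm4 on chromosome 1 had -0.03, 0.07 and 0.29. Rbm8a, the Y14 subunit of the exon junction complex, had 0.23 ± 0.17.

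**Figure D3:**
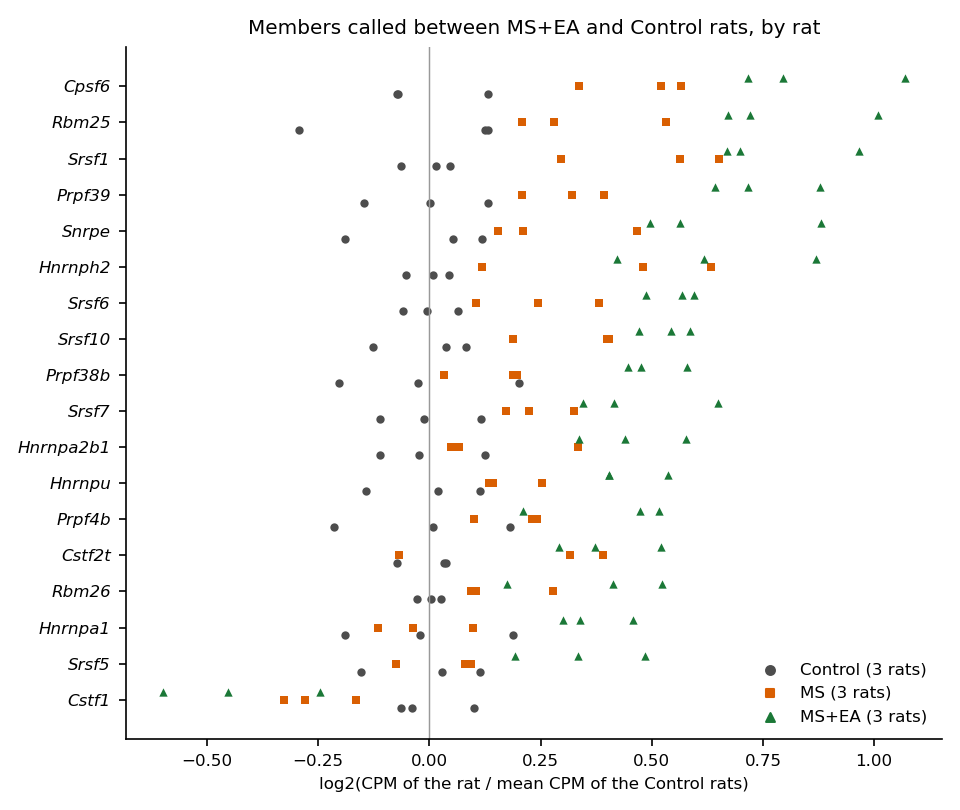
Level of 18 of the 19 called members in each of the 9 rats, as log2 of its CPM over the mean CPM of the Control rats (circles Control, squares MS, triangles MS+EA). Triangles lie right of every circle in 17 genes and left of every circle in Cstf1. In Srsf1, Cpsf6, Prpf39, Rbm25, Srsf6 and Srsf10 the squares lie between without overlap, and likewise in Hnrnpu, Srsf7 and Snrpe.

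MS rats relative to Control rats showed no member past an adjusted p under 0.05 in limma-trend or in edgeR with all rats and its own filter on low counts, where edgeR called 0.0238% of all genes tested. DESeq2 called 3, Cpsf6, Srsf1 and Srsf10, or 2.73% against 1.23% of all genes it tested, and edgeR with a filter of at least 1 count called Cpsf6, Hnrnph2 and Srsf1. At an unadjusted p under 0.05, 11 members were higher and 2 lower, that is 10% and 1.82%, where all genes tested gave 7.06% and 3.55%. The groups did not overlap in 13 members higher and 4 lower, against 10% and 7.53% of all genes. The median log2 fold change was 0.01, and 59 of the 110 values were positive. The smallest p-values belonged to Srsf1 (log2 fold change 0.51 ± 0.10, edgeR adjusted p = 0.108) and Cpsf6 (0.48 ± 0.10, edgeR adjusted p = 0.110). These were followed by Srsf10 (0.33 ± 0.08, edgeR adjusted p = 0.164), Prpf39 (0.31 ± 0.09, edgeR adjusted p = 0.220) and Hnrnph2 (0.43 ± 0.13, edgeR adjusted p = 0.222). The 2 lower members were Cstf1 (-0.26 ± 0.11) and Hnrnpl (-0.13 ± 0.06), with edgeR adjusted p = 0.440 and 0.471. Without MS rat B3, Srsf1 was called, and without MS+EA rat C10, which belongs to neither group, Srsf1 and Cpsf6 were. The filter, the scaling, the shared spread and the adjustment of p were all redone when a rat was left out. Leaving out Control rat A1 or MS rat B6 lowered the members at an unadjusted p under 0.05 from 13 to 7. The shares over all genes are not given for the filter of at least 1 count or for the fits with a rat left out. By subfamily the median log2 fold change ran from -0.09 for the SF3A and SF3B subunits to 0.13 for the SR proteins.

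MS+EA rats relative to MS rats likewise showed no member past an adjusted p under 0.05 in limma-trend or in that edgeR fit, with 0.0178% of all genes called by edgeR. With the filter of at least 1 count edgeR called 5 members, and the share of all genes called under that filter is not given here. DESeq2 called 7 of the 74 members that its own filter left, among them Cpsf6, Hnrnpa1, Hnrnpu, Prpf39, Rbm25 and Srsf6, or 9.46% against 2.48% of all genes to which it gave an adjusted p. At an unadjusted p under 0.05, 29 were higher and 3 lower in MS+EA rats, 26.4% and 2.73%, where all genes tested gave 6.01% and 6.42%. The MS+EA rats were all above the MS rats in 35 members and all below in 5, against 8.27% and 9.60% of all genes. The median log2 fold change was 0.13, with 79 of 110 values positive, against a median of 0.00 over all genes. Small p-values were found for Prpf39 (0.44 ± 0.09, edgeR adjusted p = 0.184), Hnrnpa1 (0.38 ± 0.09, edgeR adjusted p = 0.205), Cpsf6 (0.39 ± 0.10, edgeR adjusted p = 0.207) and Prpf3 (0.42 ± 0.11, edgeR adjusted p = 0.226).

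The members that leaned lower in MS+EA than in MS rats were Rbm42 (-0.30 ± 0.11), Srsf12 (-0.57 ± 0.25) and Rbm15b (-0.17 ± 0.08), with edgeR adjusted p of 0.319, 0.382 and 0.394. Rbm42 had 28.2, 34.1 and 27.3 CPM in MS and 26.3, 24.0 and 22.2 CPM in MS+EA rats, and the groups did not overlap. Rbm3, a protein induced by mild cooling that binds mRNA in neurons, had 34.6, 40.1 and 43.2 CPM in Control, 36.4, 38.4 and 35.7 in MS and 43.2, 51.2 and 39.9 CPM in MS+EA rats. Its MS+EA rats lay above those of MS, by 0.28 ± 0.11 on the log2 scale (edgeR adjusted p = 0.322). Cirbp, its cold-inducible relative, which is no member, had 44.7, 42.7 and 44.6 CPM in MS and 45.0, 46.2 and 41.6 CPM in MS+EA rats and a log2 fold change of 0.01 ± 0.08. By subfamily the median log2 fold change between MS+EA and MS rats was 0.17 for the SR proteins and for the PRP factors, 0.16 for the hnRNP proteins, 0.14 for the Rbm group and 0.06 for the SF3A and SF3B subunits. It was 0.09 for the Cpsf and Cstf factors, -0.05 for the snRNP proteins and -0.08 for the U2 auxiliary factors.

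**Figure D4:**
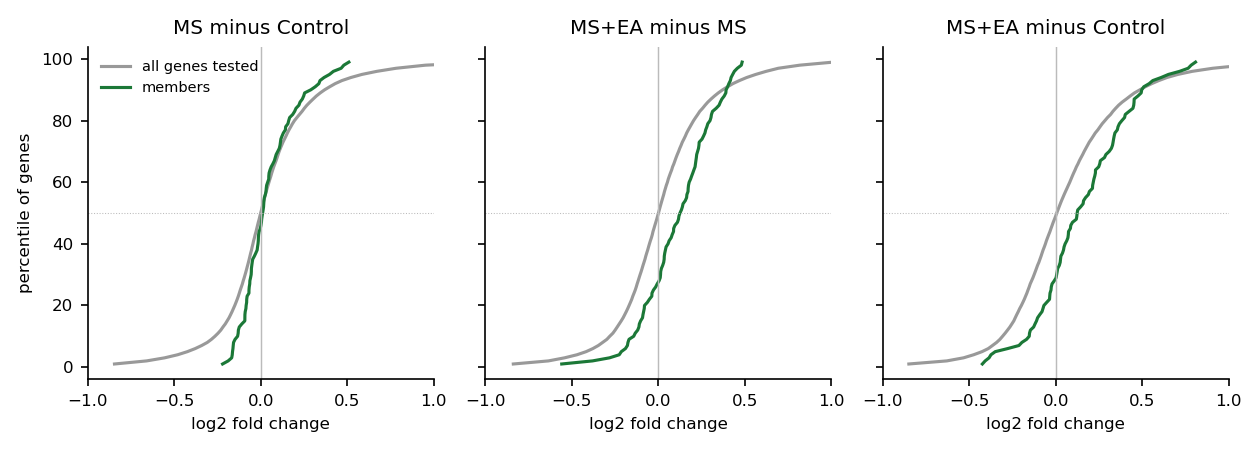
Percentiles of the log2 fold changes of the 110 members (green) and of all 16837 genes tested (grey) in each comparison, drawn from percentile 1 to 99 within -1 to 1. The members' curve crosses the 50th percentile at 0.01 between MS and Control rats, 0.13 between MS+EA and MS rats and 0.12 between MS+EA and Control rats.

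The comparisons share groups, and the difference between MS+EA and Control rats is the sum of the other 2 differences on the log2 scale, so their values are set side by side without a test. For Cpsf6 the difference of 0.87 was made up of 0.48 between MS and Control and 0.39 between MS+EA and MS rats. For Srsf1 the parts were 0.51 and 0.27, and for Hnrnph2 0.43 and 0.22. Srsf5 divided differently, into 0.04 and 0.31, as did Hnrnpa1, into -0.02 and 0.38. With standard errors of 0.08 to 0.17 for each part in the called members, whether a gene's larger part exceeds its smaller one was not tested. The sign of the small MS difference of Hnrnpa1 turned when A2 or B4 was left out (0.08 and 0.03), and that of Srsf5 when A1 was left out (-0.04).

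**Figure D5:**
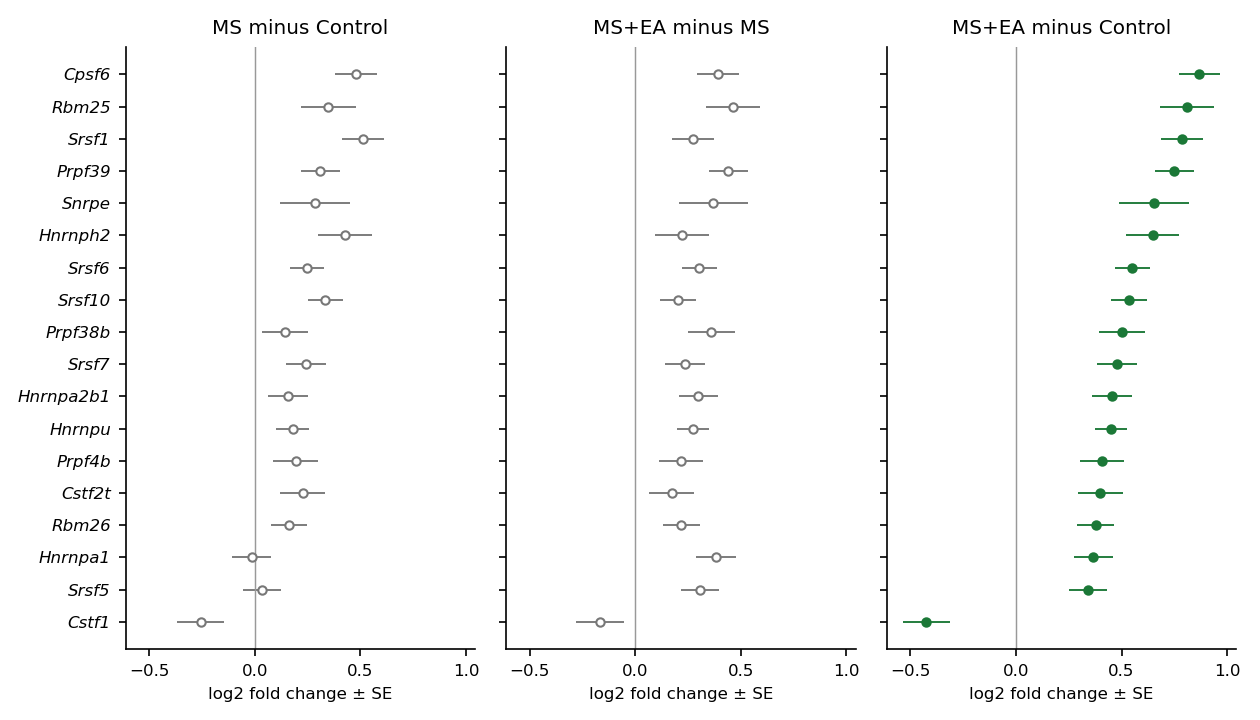
Log2 fold change (points) with its standard error (bars) of 18 of the 19 called members in the 3 comparisons, filled where the edgeR adjusted p was under 0.05. All 18 are filled between MS+EA and Control rats, because they were chosen by their call in that comparison, and none is filled in the other panels. Hnrnpa1 and Srsf5 lie at -0.02 and 0.04 between MS and Control rats.

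Other genes of the same processes, outside the symbols used here, were taken from 7 lists with 123 genes in the table, of which 122 were tested. Between MS+EA and Control rats 11 of these were called higher and 2 lower, or 9.02% and 1.64%, where all genes tested gave 3.21% and 2.19%, and their median log2 fold change was 0.05. The counts of each list below stand against the same shares of all genes. In the remaining 2 comparisons edgeR called none of them. Among the 14 SR-related proteins and SR protein kinases, 3 were higher. Tra2b, a splicing activator that works with SR proteins, had 58.1, 57.0 and 57.1 CPM in Control, 67.9, 66.7 and 64.6 in MS and 83.4, 84.9 and 80.0 CPM in MS+EA rats, 3 narrow and separate ranges, with a log2 fold change over Control of 0.53 ± 0.06 (edgeR adjusted p = 0.00299). Clk1 and Clk4, kinases that phosphorylate SR proteins, rose by 0.41 ± 0.09 and 0.55 ± 0.10 (edgeR adjusted p = 0.0234 and 0.0128). In the 45 tested genes of the core spliceosome list 2 were higher, or 4.44%, near the 3.21% of all genes tested. They were Luc7l2, a U1-associated factor, by 0.68 ± 0.10, and U2surp, a U2-associated SR-related protein, by 0.45 ± 0.07 (edgeR adjusted p = 0.00590 and 0.00798). Snrpn had the largest log2 fold change of the list, 0.72, and was called only in 7 of the 16 alternatives. The median of that list was 0.00.

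Of the 34 neuronal and tissue splicing regulators, 3 were higher and 2 lower in MS+EA than in Control rats. Ptbp3, a polypyrimidine tract binder, had 43.5, 41.4 and 48.8 CPM in Control, 57.7, 61.5 and 53.0 in MS and 60.6, 55.6 and 56.3 CPM in MS+EA rats. MS and MS+EA rats were intermingled above the Control rats, and the log2 fold change over Control was 0.37 ± 0.09 (edgeR adjusted p = 0.0332). Celf5, a neuronal CELF protein, lay in the opposite direction at 349, 337 and 344 CPM in Control, 299, 291 and 303 in MS and 284, 302 and 272 CPM in MS+EA rats, with -0.26 ± 0.06 (edgeR adjusted p = 0.0303). In the minor spliceosome list 1 of 8 genes was called: Rnpc3, the U11/U12 65K protein, with 0.73 ± 0.14 (edgeR adjusted p = 0.0155). Of the 12 other 3′ end factors 2 were called higher, the poly(A) polymerase Papolg with 0.40 ± 0.09 and the CPSF subunit Fip1l1 with 0.30 ± 0.07 (edgeR adjusted p = 0.0329 and 0.0401). None of the 8 exon junction complex genes was called.

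Replicate spread was lower over the members than over all genes tested, which were not matched to them by level. The median biological coefficient of variation over the members was 9.17%, against 12.4% over all genes tested, and ran from 5.99 to 30.8% among them. Only 2 of the 110 had a count under 10 in some rat, and the median of their mean counts was 619 per rat. Counts of rats within a group differed by 7.14 to 16.2 times the counting variance, so no library was a copy of another. With 3 rats per group, an exact permutation of the rats for 1 gene could not give a two-sided p below 0.1. No exon or junction counts were among the values used, and neither splicing itself nor the choice of polyadenylation sites was measured.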

How the data were processed

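Total RNA of 9 rat frontal cortices was depleted of ribosomal RNA and sequenced by HiSeq X (Illumina). After quality filtering with FastQC, the authors aligned the reads by HISAT2 (2.0.4 per the labels' processing notes) to Rnor_6.0, and they deposited unnormalized whole-number counts for each gene. The counting program, its strand setting and the treatment of reads with several locations are not given in the sources used here. Groups came from the labels. The members, the lists and the motifs were chosen with earlier results of these data known.

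The counts were tested with edgeR 4.0.16 in R 4.3.3. Genes were kept by filterByExpr (minimum count 10), libraries were scaled by TMM, and the 9 rats entered 1 quasi-likelihood fit that gave every group its own mean. F tests were adjusted by Benjamini-Hochberg over the 16837 genes tested. Standard errors were obtained as the absolute log2 fold change over the root of its F statistic. Members were called at an adjusted p under 0.05, and also with a fold change above 1.5, the thresholds in the methods of the study. EBSeq, which the study used, was not run. Procedures were tested on simulated data. Alternatives were other scalings and filters, DESeq2 1.42.0, limma-trend 3.58.1, a fit of the 6 rats compared and the omission of each rat. 1 member is counted in every total but is not reported individually here or drawn. The genes named are otherwise the members called in any comparison, the 5 with the smallest p per direction and comparison, those with the smallest p in each subfamily, and up to 3 per other list and comparison. Cpsf7, Rbm3, Rbm25l1 and further members outside that rule were named after their values had been seen, as relatives of members or to complete a subfamily. Promoters, names and neighbours came from RefSeq on GRCr8, with 109 members matched by symbol and 1 by synonym. No genome coordinates of Rnor_6.0 were used. Tables were built with pandas 2.3.3 and numpy 2.4.6 under Python 3.11.15, and plots with matplotlib 3.10.9.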

Additional observations from a re-analysis of the deposited data

How the results depend on the processing

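No paired analysis was possible because no label ties a rat of one group to a rat of another. Between MS and Control rats 0 members were called in the main analysis, 3 with a filter of at least 1 count (Cpsf6, Hnrnph2 and Srsf1), 3 with DESeq2 and 0 to 2 when a rat was left out, or 0 to 1 with a fold change above 1.5. The members at an unadjusted p under 0.05 were 7 to 14 when a rat was left out, and the median log2 fold change was between -0.005 and 0.03 over all alternatives. Between MS+EA and MS rats 0 members were called, 5 with the filter of at least 1 count and 7 with DESeq2, and leaving out a rat gave 20 (without B4) to 34 members at an unadjusted p under 0.05. The median was 0.0949 to 0.1442 when a rat was left out and 0.1688 with total counts. Between MS+EA and Control rats the 19 calls became 6 to 20 when a rat was left out, 14 in the fit of the 6 rats compared and 27 with DESeq2, and the median was 0.1066 to 0.1718 when a rat was left out and 0.1514 with total counts. Scaling by total counts in place of TMM moved the medians because it leaves out the composition factor. Of 118 pairs of a named gene and a comparison, each under up to 16 alternatives, 1740 of 1882 values kept their direction and their side of the threshold, 97 lost a call and 42 gained one. Pairs not called in the main analysis could not lose a call, and these include every pair outside the comparison of MS+EA with Control rats. The calls of the 19 called members were kept in 6 (Cstf1) to 16 of the 16 alternatives. The 3 that turned were the MS difference of Hnrnpa1 without A2 and without B4, with a range of -0.1031 to 0.0823 when a rat was left out, and that of Srsf5 without A1, with a range of -0.0377 to 0.0944. The cause of the differences between tools was not tested. Apart from DESeq2, the shares of all genes under these alternatives are not given here. Whether the numbers of members changed more than those of all genes is therefore not shown. Depth limits the members with few counts, such as Hnrnpab and Snrpg, whose standard errors between MS+EA and Control rats were 0.47 and 0.37.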

Other observations

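Some splicing regulators outside the members, named after their values had been seen, were called between MS+EA and Control rats. Elavl2, a neuronal RNA-binding protein, had 61.8, 65.7 and 59.9 CPM in Control, 65.4, 66.4 and 71.5 in MS and 73.1, 88.4 and 76.2 CPM in MS+EA rats, a log2 fold change of 0.34 ± 0.08 (edgeR adjusted p = 0.0363). Tial1, which binds U-rich sequence beside weak 5′ splice sites, rose by 0.35 ± 0.08 (edgeR adjusted p = 0.0332). Celf4, a neuronal CELF protein, had 383, 386 and 367 CPM in Control, 332, 360 and 368 in MS and 313, 319 and 331 CPM in MS+EA rats, and fell by 0.24 ± 0.06 on the log2 scale (edgeR adjusted p = 0.0459).

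Ewsr1, a FET family RNA-binding protein, had the widest difference among the genes of these lists, with 33, 80 and 122 counts in MS rats against 22, 36 and 11 in MS+EA rats, but its log2 fold change of -1.54 ± 0.49 was not called (edgeR adjusted p = 0.260) and the levels of Control rats, 77, 29 and 41 counts, overlapped with both. Among the members, Hnrnpab, Snrpg, Rbm39 and Hnrnpc were counted at 7 to 30, 9 to 25, 47 to 118 and 111 to 165 reads per rat. Whether reads that also map to related sequences were left out of these counts was not tested.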
